A study of Mus musculus with 36 samples.

Results

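The collagens other than the 5 classical fibril-forming chains were followed through every cell class, surgery and day of the series. The genes were chosen by name alone: any gene of the count tables called Col, a number, a and a number, apart from Col1a1, Col1a2, Col3a1, Col5a1 and Col5a2. This gave 39 of the 20720 genes counted. All 39 were detected in at least 1 of the 3146 wells that were kept as cells. They held 86906 of the unique molecular identifiers (UMIs) counted there, against 303649 for the 5 chains left out, and Col4a1, Col4a2 and Col15a1 together made up 56.3% of them. A UMI is a short random tag that marks 1 captured transcript, so a UMI count is a count of molecules. The name of the group goes against 6 of its members, as Col2a1, Col5a3, Col11a1, Col11a2, Col24a1 and Col27a1 encode chains of fibril-forming collagens, and these are kept and named as such.

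Single cells of the left ventricle, infarcted region, of male C57BL/6 mice aged 8 weeks were sorted 1 per well and their polyadenylated RNA was counted by SORT-seq, which reads the 3' end of each transcript. Of the 36 plates, 4 held cells taken 1 day after a sham operation and 8 held cells taken 14 days after one. Ischemia-reperfusion (IR), in which the left anterior descending coronary artery was tied off for 1 hour and then released, was followed to day 1 on 9 plates, to day 3 on 7 and to day 14 on 3. Myocardial infarction (MI), in which the same artery stayed tied, was followed to day 3 on 5 plates. The labels name no engineered allele or agent for any animal, the study's methods call the mice of its MI experiment C57BL/6 J wild type, and for sham surgery no ligation is described. The study's methods name 3 mice per condition, the labels do not tie plates to mice, and plates can therefore share a mouse, so that the p-values given here measure the spread between plates and may be too small.

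The kept wells held on average 3470 to 7240 UMIs in the sham and IR groups and 23882 in the MI group. The MI plates also carry a protocol entry of their own, so that the MI surgery, the depth and a preparation batch cannot be told apart. The median share of mitochondrial UMIs also moved with the groups, at 67.6% and 69.1% in day 1 and day 14 sham cells, 29.4%, 46.5% and 69.4% at IR day 1, 3 and 14 and 9.55% after MI, and its part in the differences below was not tested. All 37 kept wells of day 14 sham replicate 7 and 35 of the 45 of replicate 2 carried the profile of the same well of the other plate, and the 2 were counted as 1 sample. The other 10 wells of replicate 2 carried that of the same well of IR day 3 replicate 6, and some wells of IR day 1 replicate 9 that of other IR day 1 plates. Leaving out those wells gave the same number of collagen calls in all 13 comparisons.

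Collagens are triple helices of 3 chains. Type IV collagen forms the sheet-like network of basement membranes, on which endothelial cells rest and which surrounds each cardiomyocyte. Type VI collagen is built from 1 chain each of Col6a1, Col6a2 and Col6a3 and forms beaded microfibrils close to the cell surface. Type VIII collagen is a short-chain network former of vessel walls, types XII, XIV and XVI sit on the surface of larger fibrils, and types XV and XVIII are multiplexins of the basement membrane zone whose ends release the fragments restin and endostatin. Type XXIII is a transmembrane collagen. In the heart most fibrillar collagen comes from fibroblasts, while basement membrane collagen is shared by several cell types.

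The promoter regions of the type VI chains, Col15a1 and Col18a1, and the start shared by Col4a1 and Col4a2, are shown here as examples of members called in the comparisons below, so that their gene arrangement can be seen. Apart from that shared start, which lies inside both annotated genes, the sequences are RefSeq windows of up to 250 bases before the gene start on GRCm38.p6. They are printed on the strand of the gene, with transcribed bases removed. In all sequences capitals mark a GC box (GGGCGG, or CCGCCC for the other strand) or a CCAAT box (CCAAT, or ATTGG). Col4a1 and Col4a2 lie head to head on chromosome 8 in the GENCODE annotation (release M21), Col4a1 on the minus strand at chr8:11198423-11312826 and Col4a2 on the plus strand at chr8:11312805-11449287, and they share their first 22 bases, printed on the plus strand with 1 GC box. Col6a1 (chr10:76708792-76726168) and Col6a2 (chr10:76595762-76623630) follow each other on the minus strand with 85161 bases between them, and Col6a3 lies on chromosome 1. Col18a1 is shown because it set the endothelial-like cells of MI plates apart.
Col4a1/Col4a2 shared start (chr8:11312805-11312826): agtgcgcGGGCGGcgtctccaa
Col6a1 (chr10:76726169-76726294): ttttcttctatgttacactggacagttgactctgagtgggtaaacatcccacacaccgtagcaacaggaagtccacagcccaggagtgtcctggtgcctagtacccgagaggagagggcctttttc
Col6a2 (chr10:76623631-76623880): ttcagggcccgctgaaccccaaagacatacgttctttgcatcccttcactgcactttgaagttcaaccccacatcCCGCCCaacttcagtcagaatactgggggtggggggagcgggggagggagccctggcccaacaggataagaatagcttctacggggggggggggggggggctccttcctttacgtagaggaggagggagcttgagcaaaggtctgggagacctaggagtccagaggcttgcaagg
Col6a3 (chr1:90843972-90844221): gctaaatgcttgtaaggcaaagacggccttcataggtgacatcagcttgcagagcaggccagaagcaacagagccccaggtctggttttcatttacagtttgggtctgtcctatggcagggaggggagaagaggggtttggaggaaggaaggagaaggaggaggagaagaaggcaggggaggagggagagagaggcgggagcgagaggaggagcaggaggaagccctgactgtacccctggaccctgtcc
Col15a1 (chr4:47207762-47208011): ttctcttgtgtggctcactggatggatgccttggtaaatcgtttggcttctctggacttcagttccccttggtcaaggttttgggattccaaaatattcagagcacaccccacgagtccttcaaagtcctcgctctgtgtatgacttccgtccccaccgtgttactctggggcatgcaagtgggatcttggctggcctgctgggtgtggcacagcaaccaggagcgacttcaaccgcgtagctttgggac
Col18a1 (chr10:77166549-77166780): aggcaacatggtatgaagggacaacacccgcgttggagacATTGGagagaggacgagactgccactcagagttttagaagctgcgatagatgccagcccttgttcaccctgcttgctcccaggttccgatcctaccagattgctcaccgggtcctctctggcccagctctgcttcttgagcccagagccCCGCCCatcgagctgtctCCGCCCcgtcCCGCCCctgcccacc
The Col6a1, Col6a3 and Col15a1 windows hold neither motif, the Col6a2 window holds 1 GC box, and the Col18a1 window holds 3 GC boxes near its end and 1 CCAAT box. Of 32817 windows over all genes, each the full 250 bases before the start with no bases removed, 32.7% held a GC box and 33.8% a CCAAT box, with both strands searched. Of the 35 windows of the 32 members that have one, 20 held a GC box and 12 a CCAAT box. Such a match is a description of the letters and not of a factor that binds there.

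Which cells carried which collagen was asked first. The cells were grouped without use of any collagen gene into classes named after marker genes, and these classes held 297 fibroblast-like and 376 endothelial-like cells, 1148 cells like cardiomyocytes, 15 mural-like cells, 636 like macrophages and 156 like neutrophils. Another 518 cells lay in clusters without a name. Levels are given as UMIs of the gene for each 1000000 UMIs of the class (CPM), summed over the cells of 1 plate, and since each transcript is counted at its 3' end they do not grow with its length. Col4a1 was highest in endothelial-like cells, with 2381 ± 908 CPM (SD, 26 plates), followed by 1182 ± 642 CPM in fibroblast-like cells (20 plates) and 300.5 ± 235 CPM in cardiomyocyte-like cells (22 plates). Its partner chain Col4a2 followed the same order, with 1705 ± 618, 760.4 ± 402 and 312 ± 176 CPM. The 15 mural-like cells, pooled, held 1681 CPM of Col4a1 and 1003 CPM of Col4a2. Neutrophil-like cells, which should lack collagen transcripts, held 293 ± 423 and 251 ± 329 CPM (14 plates), so that the level of cardiomyocyte-like cells did not stand above theirs beyond the spread.

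Col15a1 was the highest member in fibroblast-like cells, with 1186 ± 636 CPM against 359 ± 362 CPM in endothelial-like cells, although its level there and that of Col4a1 in the same cells differed by far less than the spread between plates. Col6a2 (1088 ± 1188 CPM), Col8a1 (884 ± 540.1 CPM), Col6a1 (836 ± 645 CPM) and Col6a3 (579 ± 339 CPM) were the other abundant members of fibroblast-like cells, and their neighbours in this order do not differ beyond their spread. Of all UMIs of a gene, fibroblast-like cells held 92.7% for Col8a1, 92.0% for Col5a3, a minor chain of type V collagen, 89.98% for Col6a3 and 89.8% for Col12a1. Endothelial-like cells held 78.7% of Col18a1 and 76.7% of Col23a1. These shares also follow the number and depth of the cells in each class, which the MI plates dominate.

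Cells of unlike depth were compared after thinning each to 1000 UMIs. Col4a1 was then seen in 77.6% of endothelial-like, 56.1% of fibroblast-like and 20.6% of cardiomyocyte-like cells, and in 6.41% of macrophage-like and 11.9% of neutrophil-like cells. Col6a1 was seen in 45.2% of fibroblast-like, 2.86% of macrophage-like and 4.57% of neutrophil-like cells. The share of Col6a1 in endothelial-like cells (4.52%) and in cardiomyocyte-like cells (3.02%) did not exceed that of neutrophil-like cells, and is not read as expression. The same holds for Col6a2, seen in 4.59% of endothelial-like, 5.67% of cardiomyocyte-like and 11.7% of neutrophil-like cells. Col15a1 was seen in 17.3%, 5.34% and 17.2% of these classes, so that its share in cardiomyocyte-like cells lay below that of neutrophil-like cells and its share in endothelial-like cells was about equal to it. Of the neutrophil-like cells 106 came from IR day 1, 49 from MI and 1 from sham plates, and for other groups they give no reference. Col4a5, a chain that joins Col4a6 or Col4a3 and Col4a4 in a trimer, was shared between other classes: fibroblast-like cells held 52.3% of its UMIs and cardiomyocyte-like cells 36.8%. Its level was 35.6 ± 29.6 CPM in fibroblast-like, 28.3 ± 20.9 CPM in cardiomyocyte-like and 3.04 ± 5.15 CPM in endothelial-like cells, and the first of these do not differ beyond their spread.

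**Figure D1:**
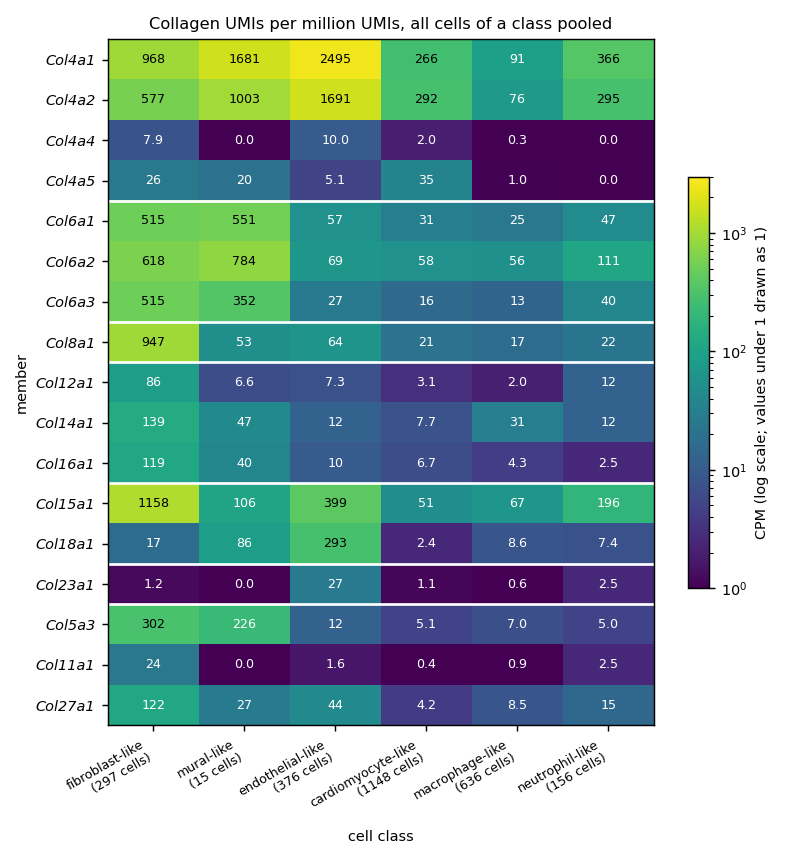
Level of the 17 members with at least 100 UMIs in each named cell class, in CPM over all cells of the class (colour on a log scale, the value printed in each field), with lines between collagen families. Col4a1 and Col4a2 peak in endothelial-like cells, at 2495 and 1691 CPM pooled, Col15a1, Col8a1 and Col6a3 in fibroblast-like cells, Col6a1 and Col6a2 in the 15 mural-like cells, at 551 and 784 CPM, ahead of fibroblast-like cells at 515 and 618 CPM, and Col18a1 and Col23a1 in endothelial-like cells.

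The head-to-head pair Col4a1 and Col4a2 was not counted in a fixed proportion. There were 1.68 UMIs of Col4a1 for each of Col4a2 in fibroblast-like cells, 1.49 in endothelial-like cells and 0.909 in cardiomyocyte-like cells. MI plates held 6527 of the 8239 UMIs of Col4a1 in fibroblast-like cells, and there the counts were 191 to 97 after day 1 sham surgery, 49 to 53 on the day 14 sham plate and 395 to 354 at IR day 3. By plate, with at least 20 UMIs of the pair, Col4a1 made up 47.1% to 73.5% (median 62.8%, 20 plates), 48.8% to 70.2% (median 57.6%, 26 plates) and 37.5% to 61.3% (median 48.0%, 18 plates), so that the ranges of the 3 classes overlap. In fibroblast-like cells there were 0.845 UMIs of Col6a1 for each of Col6a2 and 0.996 for each of Col6a3, sums in which MI plates held 3056 of the 4325 UMIs of Col6a1. By plate Col6a1 made up 18.9% to 58.4% (median 46.7%, 19 plates) of its sum with Col6a2 and 21.4% to 83.3% (median 52.3%, 19 plates) of that with Col6a3. It stood at 165 UMIs against 67 of Col6a3 after day 1 sham surgery and 273 against 98 at IR day 14, but at 142 against 195 at IR day 1. Col8a1 exceeded its sister chain Col8a2 by 134 to 1 over all plates, of which MI plates gave 6625 and 19 UMIs, and by 214 to 27 UMIs at IR day 14. Its share of the pair was 85.3% to 100% by plate (median 99.7%, 16 plates).

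Of the other members, Col4a4, which forms a basement membrane trimer with Col4a3 and Col4a5, held 52.2% of its UMIs in fibroblast-like and 27.6% in endothelial-like cells. Col14a1 had 20.6% of its UMIs in macrophage-like cells. Its level there was 48.5, 30.8, 48.8, 34.04 and 31.4 CPM on the 5 MI plates, and 0 to 42.5 (median 0, n = 9) and 0 to 14.7 (median 0, n = 6) CPM on the IR day 1 and day 3 plates. The day 1 sham plates held 0 to 45.7 (median 33.6, n = 3) CPM, which overlaps with MI. Of 2 further fibril-forming chains kept by the naming rule, fibroblast-like cells held 86.7% of Col11a1, a chain of type XI, and 75.1% of Col27a1. The 12 members with 20 to 99 UMIs were Col8a2, Col7a1, Col24a1, Col4a6, Col4a3, Col20a1, Col6a5, Col9a3, Col2a1, Col19a1, Col11a2 and Col28a1. The 10 members with fewer were Col25a1, Col6a6, Col13a1, Col6a4, Col17a1, Col9a2, Col22a1, Col9a1, Col26a1 and Col10a1, and no difference could be tested for them at this depth.

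Fibroblast-like and endothelial-like cells of the same 18 plates were then compared, with the plate as a term. All 7 members that passed the filter on low counts differed, where 48% of the 2182 genes tested did. The filter counts plates of either class, so that a member can pass through the class where it is high. Col6a3, Col8a1, Col6a1 and Col6a2 averaged 19.1, 36.0, 57.2 and 55.7 CPM in endothelial-like cells (26 plates). The count of 7 is therefore not read as a result about the members. Col6a3 (log2 fold change 4.63 ± 0.30 (SE), adjusted p = 1.65e-12), Col8a1 (4.20 ± 0.36 (SE), adjusted p = 3.37e-10), Col6a1 (3.72 ± 0.41 (SE), adjusted p = 2.77e-08), Col6a2 (3.52 ± 0.39 (SE), adjusted p = 4.07e-08) and Col15a1 (1.77 ± 0.36 (SE), adjusted p = 0.000243) were higher in fibroblast-like cells. Col4a2 (-1.11 ± 0.23 (SE), adjusted p = 0.000328) and Col4a1 (-0.95 ± 0.23 (SE), adjusted p = 0.00159) were higher in endothelial-like cells. The other 32 members, Col18a1 and Col23a1 among them, were not tested there because too few plates, over both classes together, held enough of their UMIs. All 5 fibrillar chains were higher in fibroblast-like cells, Col1a1 by 5.53 on the log2 scale, and so were 14 of the 15 folding and processing genes tested.

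In fibroblast-like cells, 18 of the 39 members had enough UMIs to be tested. The filter on low counts asked for this on 1 plate only, as the smallest group held 1. A member can thus enter through the group where it is high. The comparisons rest on 3 day 1 sham plates and 1 day 14 sham plate, on 5, 4 and 2 plates of IR day 1, 3 and 14, and on 5 MI plates, each with at least 5 such cells. The 2 clusters of the class were not shared evenly: cluster 14, led by Pi16, Htra3 and Gsn, held most sham and IR day 14 cells, cluster 6, led by Cxcl5, Tnc and Timp1, held 131 MI, 44 IR day 1 and 36 IR day 3 cells, and 1 MI cell and 1 sham cell were in the other cluster. The class also differed in its markers. The summed level of the 10 fibroblast markers, all detected, was 52569 to 66313 CPM on day 1 sham plates, 40928 on the day 14 sham plate, 5393 to 18194 on IR day 1, 13323 to 29774 on IR day 3 and 4312 to 6121 on MI plates. The 10 cardiomyocyte markers summed to 1814 to 10548 CPM on day 1 sham, 5525 on day 14 sham, 78.4 to 516 on IR day 1, 1241 to 6768 on IR day 3 and 25.7 to 214 on MI plates. The 9 mural markers summed to 285 to 699, 274, 70.5 to 806, 407 to 1964 and 1445 to 1813 CPM in the same order, with Rgs5 and Higd1b at 0 on MI plates, and the 10 macrophage markers to 0 to 72.7, 2488, 7.84 to 186, 49.7 to 3389.6 and 249 to 339 CPM. The part of these shifts in the results below was not tested.

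At 1 day after IR, fibroblast-like cells held less Col6a1, Col6a2, Col14a1, Col15a1, Col4a4 and Col4a5 than after sham surgery. Of the 18 members tested 6 fell and 0 rose, where 21.9% of the 5934 genes tested were called and 8.11% were called lower. Col6a1 was at 1172, 1457 and 1091 CPM on the day 1 sham plates and 1411 CPM on the day 14 sham plate, against 439, 100.1, 167, 227 and 11.3 CPM on the IR day 1 plates (log2 fold change -2.62 ± 0.48 (SE), adjusted p = 0.000522). Col6a2 was at 1140.3, 1100.5 and 1018 CPM and 1881 CPM after sham surgery and at 472, 122, 211, 227 and 113 CPM at IR day 1 (log2 fold change -2.47 ± 0.47 (SE), adjusted p = 0.000640). For both chains every IR day 1 plate lay below every sham plate. The third chain, Col6a3, was at 412, 714 and 218 and 607 CPM after sham surgery and 400.4, 367, 334, 274 and 90.2 CPM at IR day 1, with overlapping groups, and did not pass (log2 fold change -0.77 ± 0.40 (SE), adjusted p = 0.168).

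Col14a1, a collagen of fibril surfaces, was at 63.3, 342 and 145 CPM on the day 1 sham plates and 333 CPM on the day 14 sham plate. On the 5 IR day 1 plates it was at 65.8, 0, 7.26, 7.84 and 0 CPM (log2 fold change -3.54 ± 0.65 (SE), adjusted p = 0.000529), with 12 of its 14 UMIs on replicate 3. Col4a4 was at 31.7, 164 and 254 and 118 CPM after sham surgery. It was at 0, 0, 7.26, 7.84 and 0 CPM at IR day 1, 2 UMIs in all (log2 fold change -5.14 ± 1.116 (SE), adjusted p = 0.00198), and the groups did not overlap. Col15a1 was at 1964, 729 and 1491 and 1567 CPM after sham surgery and at 598, 11.1, 689.7, 165 and 530.1 CPM at IR day 1 (log2 fold change -1.72 ± 0.52 (SE), adjusted p = 0.0191), again without overlap, in a call that 2 of its 31 alternative fits lost. Col4a5 fell from 63.3, 44.6 and 72.7 and 58.8 CPM to 16.5, 0, 7.26, 15.7 and 0 CPM (log2 fold change -2.48 ± 0.88 (SE), adjusted p = 0.0456), a call that 14 of its 31 alternative fits lost.

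The main basement membrane chains did not follow. Col4a1 was at 855, 1903 and 1309 and 960.0 CPM after sham surgery and 1239.7, 345, 1075, 2099.9 and 2448 CPM at IR day 1 (log2 fold change 0.43 ± 0.51 (SE), adjusted p = 0.585). Col4a2 (0.09 ± 0.50 (SE), adjusted p = 0.929), Col8a1 (-0.42 ± 0.58 (SE), adjusted p = 0.649) and Col5a3 (0.78 ± 0.58 (SE), adjusted p = 0.362) also missed the threshold with wide errors, which does not show that they were alike. The median log2 fold change was -0.59 over the 18 members and 0.33 over all genes tested. Of the partner genes of basement membranes 6 of 11 fell and 0 rose, the lowest p being those of Lama2 (-3.23 ± 0.41), Nid1 (-2.08 ± 0.35) and Lamc1 (-1.66 ± 0.30), which encode laminin chains and nidogen. None of the 5 fibrillar chains passed.

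**Figure D2:**
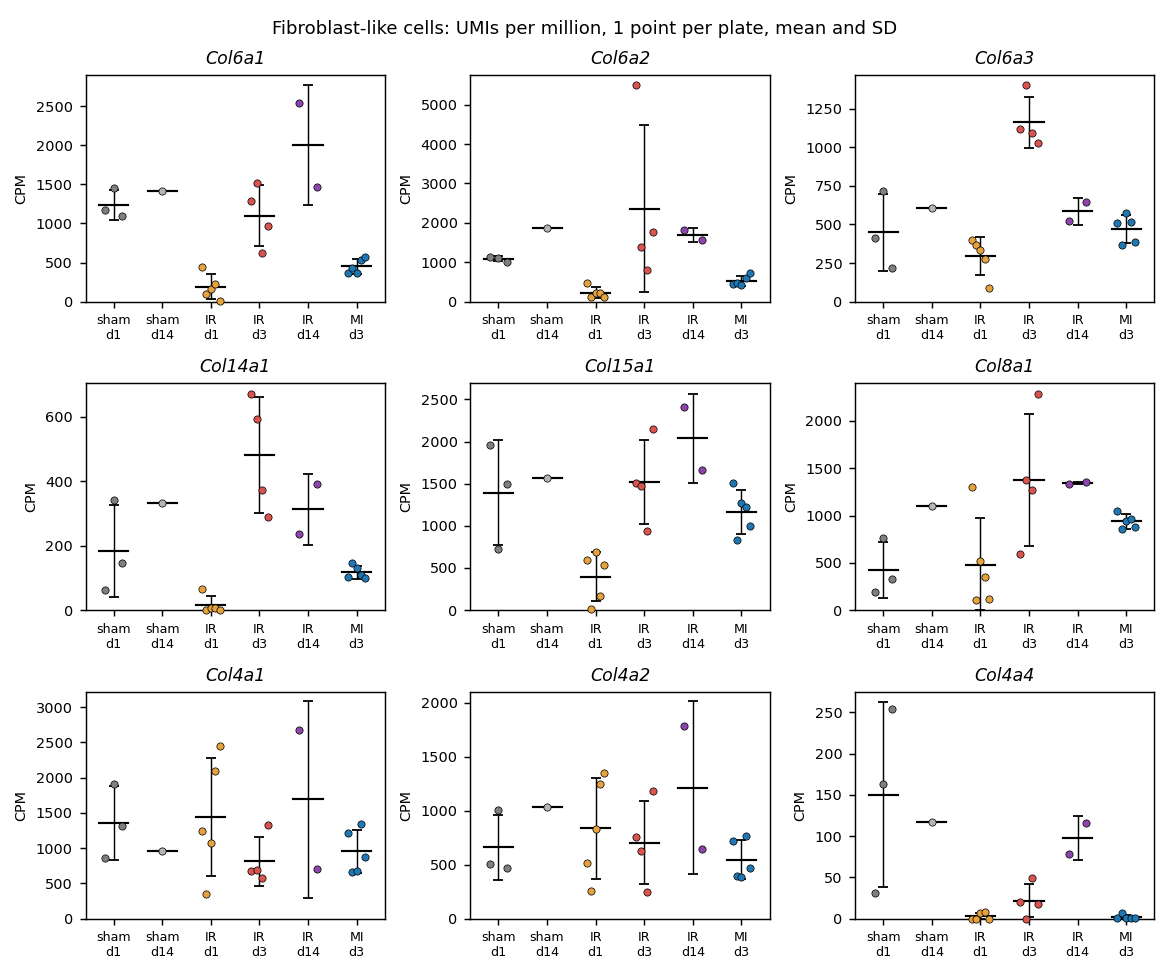
CPM in fibroblast-like cells for 9 members, 1 point per plate, with the mean as a line and the SD as a bar (drawn no lower than 0), for sham at day 1 and 14, IR at day 1, 3 and 14, and MI at day 3. The Col6a1, Col6a2 and Col15a1 points of IR day 1 all lie below the sham points, and the Col14a1 points of IR day 3 and IR day 14 lie above those of IR day 1 and MI.

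Between day 1 and day 3 of IR more of these genes differed than in any other comparison between groups of fibroblast-like cells. Of the 18 members 9 were higher at day 3 and 0 lower, where 11.5% of all genes tested were called higher and 22% in either direction. The median log2 fold change was 2.07 over the members and 0.03 over all genes tested. This comparison shares the IR day 1 plates with the one above, so that a low plate at day 1 lowers one and raises the other. With only the plates of at least 10 cells, which left 1 plate at day 1 and 3 at day 3, the count of members called was 1.

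All 3 chains of type VI collagen rose. At IR day 3 Col6a1 was at 1282, 1520.5, 621 and 963 CPM on the 4 plates (log2 fold change 2.57 ± 0.46 (SE), adjusted p = 0.000382), Col6a2 at 5495, 1398, 795 and 1755 CPM (log2 fold change 3.36 ± 0.45 (SE), adjusted p = 1.76e-05) and Col6a3 at 1119, 1405, 1094 and 1026 CPM (log2 fold change 2.07 ± 0.35 (SE), adjusted p = 0.000262). None of these overlapped with IR day 1. Replicate 3 stood far above the others for Col6a2, with 270 UMIs among 24 cells. Col14a1 was at 672, 593, 373 and 288 CPM, against at most 65.8 CPM at day 1 (log2 fold change 4.57 ± 0.55 (SE), adjusted p = 6.13e-06).

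Of the remaining members, Col15a1 was at 1506, 1477, 945 and 2151 CPM at day 3 (log2 fold change 2.04 ± 0.49 (SE), adjusted p = 0.00432) and Col16a1, which like type XIV sits on fibril surfaces, at 183, 194, 249 and 189 CPM, compared with 93.2, 11.1, 65.3, 39.2 and 11.3 CPM at day 1 (log2 fold change 2.09 ± 0.42 (SE), adjusted p = 0.00105). Neither overlapped. Col8a1 rose from 1305, 111, 523, 353 and 113 CPM to 590.2, 1377, 1268 and 2286 CPM (log2 fold change 1.60 ± 0.52 (SE), adjusted p = 0.0283) and Col4a5 from 16.5, 0, 7.26, 15.7 and 0 to 102, 14.4, 99.4 and 36.0 CPM (log2 fold change 2.35 ± 0.76 (SE), adjusted p = 0.0274), both with overlapping plates and with calls that 9 of 29 alternative fits lost. Col8a2 had 0 UMIs on all 5 IR day 1 plates, which allows up to 4.79 CPM over the group at a floor of 3 UMIs, and was at 102, 25.2, 0 and 9.00 CPM at day 3 (13 UMIs, adjusted p = 0.0229), in a call lost in 4 of 29. Col4a1 (-0.69 ± 0.46 (SE), adjusted p = 0.290), Col4a2 (-0.10 ± 0.45 (SE), adjusted p = 0.909) and Col5a3 (0.04 ± 0.45 (SE), adjusted p = 0.966) did not pass.

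The genes around them moved as follows. All 5 fibrillar chains rose, with Col1a1 (3.62 ± 0.48), Col1a2 (3.74 ± 0.56) and Col3a1 (3.37 ± 0.54) in front. Of 11 basement membrane partners 6 rose, of 19 folding and processing genes 4 rose, among them P4ha3 (4.02 ± 0.56), a prolyl hydroxylase subunit, and of 7 receptors 2 rose, Antxr1 (2.46 ± 0.38) and Mrc2 (1.26 ± 0.42). Antxr1 encodes a receptor that binds type VI collagen. None of these lists had a member that fell.

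**Figure D3:**
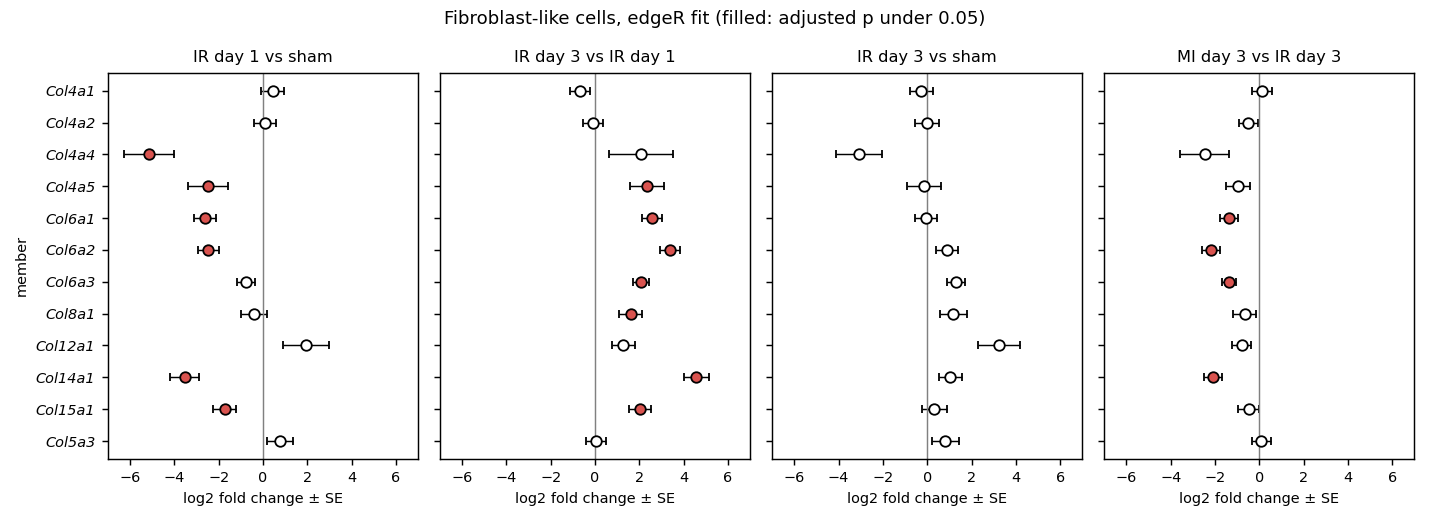
Fitted log2 fold change (x axis) with its standard error in fibroblast-like cells for 12 members (y axis) in 4 comparisons, filled where the adjusted p is under 0.05. The Col6a chains, Col14a1 and Col15a1 lie left of 0 at IR day 1 against sham and right of 0 at IR day 3 against IR day 1, while Col4a1, Col4a2 and Col5a3 are unfilled in all 4.

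Set against sham surgery, the fibroblast-like cells of IR day 3 differed in 1 of 18 members, where 1.74% of all genes tested were called and 1.21% were called higher. This was Col16a1, at 183, 194, 249 and 189 CPM after IR, against 31.7, 104 and 0 CPM on the day 1 sham plates and 0 CPM on the day 14 sham plate. That last plate held 0 UMIs of 51041, which allows up to 58.8 CPM at 3 UMIs, and the fitted value of 5.68 ± 1.26 (SE), adjusted p = 0.0176 rests on it. Against the day 1 sham plates alone the log2 fold change was 1.89 and did not pass (adjusted p = 0.080). Col12a1 was at 102, 111, 273 and 162 CPM and on the sham plates at 0, 0 and 36.4 and 39.2 CPM, and Col6a3 was also higher without overlap, but neither passed (3.23 ± 0.94 (SE), adjusted p = 0.0790 and 1.30 ± 0.42 (SE), adjusted p = 0.112). Col6a1 (-0.05 ± 0.50 (SE), adjusted p = 0.979), Col15a1 (0.32 ± 0.55 (SE), adjusted p = 0.824), Col4a1 (-0.26 ± 0.53 (SE), adjusted p = 0.852) and Col4a2 (-0.01 ± 0.53 (SE), adjusted p = 1.000) were close to no difference, with Col6a2 (0.89 ± 0.50 (SE), adjusted p = 0.367), Col8a1 (1.19 ± 0.63 (SE), adjusted p = 0.347) and Col5a3 (0.82 ± 0.61 (SE), adjusted p = 0.525) above it. In simulated data 42.5% of genes changed 4-fold were found in this comparison. The median was 1.11 over the members and 0.35 over all genes tested, and of all calls 69.9% were higher, or 56.3% when the libraries were scaled by DESeq2's size factors. Of the 5 fibrillar chains 2, Col1a1 (3.06 ± 0.62) and Col5a2 (2.05 ± 0.49), rose.

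At 3 days after MI, Col6a1, Col6a2 and Col4a4 were lower in fibroblast-like cells than after sham surgery. Of 18 members 1 was higher and 3 lower, where 11.8% of all genes tested were called higher and 6.64% lower, 18.5% in all. The share of all calls that were higher was 64.1% here and 45.7% when the libraries were scaled by DESeq2's size factors in place of TMM, which moved the median of all genes by -0.26 on the log2 scale. The MI plates held Col4a4 at 1.17, 7.04, 1.14, 1.03 and 0.852 CPM, 16 UMIs of 7027561, all below the sham plates (log2 fold change -5.55 ± 0.88 (SE), adjusted p = 0.000109). Col6a1 was at 368, 425, 368, 528 and 568.1 CPM (log2 fold change -1.42 ± 0.46 (SE), adjusted p = 0.0320) and Col6a2 at 445, 465, 420.2, 603 and 721 CPM (log2 fold change -1.28 ± 0.45 (SE), adjusted p = 0.0456), each below every sham plate. These 2 calls are less firm, as they were lost in 8 and 14 of 31 alternative fits. Against day 1 sham alone Col4a4 and Col6a1 passed, and against day 14 sham alone, which is 1 plate, only Col4a4 did.

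Col16a1 was called higher, at 102, 95.8, 145, 135 and 123 CPM after MI, but the groups overlapped. The fitted value (4.88 ± 1.41 (SE), adjusted p = 0.0174) again rests on the 1 day 14 sham plate, and against day 1 sham alone it was 1.09 and did not pass (adjusted p = 0.21). Col15a1 was at 1506, 832, 1272, 1219 and 997 CPM (log2 fold change -0.16 ± 0.52 (SE), adjusted p = 0.869), Col8a1 at 1053, 854, 938, 966 and 877 CPM (log2 fold change 0.52 ± 0.59 (SE), adjusted p = 0.579) and Col4a1 at 1211, 666, 678, 1336 and 875 CPM (log2 fold change -0.15 ± 0.49 (SE), adjusted p = 0.877), each within the range of the sham plates or overlapping with it. Col6a3 (-0.07 ± 0.39 (SE), adjusted p = 0.927), Col4a2 (-0.51 ± 0.49 (SE), adjusted p = 0.505) and Col5a3 (0.90 ± 0.56 (SE), adjusted p = 0.283) did not pass either. The median was -0.06 over the members and 0.39 over all genes tested.

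Among the surrounding genes, 6 of 11 basement membrane partners were lower and 1 higher, the lowest p being those of Lama2 (-3.47 ± 0.37), Lamc1 (-1.72 ± 0.29) and Nid1 (-1.97 ± 0.34). The median of that list was -1.26. Of 19 folding and processing genes 10 were higher and 0 lower, with P4hb (1.96 ± 0.39) and Fkbp10 (1.92 ± 0.47) in front, and of the fibrillar chains 2 were higher. The receptor Antxr1 (-1.64 ± 0.40) fell.

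MI and IR were compared at day 3, the only day at which both were sampled. Of 18 members 6 were lower in MI and 0 higher, where 5.27% of all genes tested were called lower, 3.2% higher and 8.48% in either direction. Of these 6, Col6a5 entered the test through 1 IR day 3 plate alone, on the side where it was high. Col14a1 was at 102, 147, 129.8, 108 and 98.8 CPM after MI and 672, 593, 373 and 288 CPM after IR (log2 fold change -2.09 ± 0.39 (SE), adjusted p = 0.00122). Col6a2 (log2 fold change -2.17 ± 0.42 (SE), adjusted p = 0.00145) and Col6a3, at 509, 366, 577, 518 and 384.98 CPM after MI and 1119, 1405, 1094 and 1026 CPM after IR (log2 fold change -1.37 ± 0.33 (SE), adjusted p = 0.0103), were lower too, and Col6a1 likewise (log2 fold change -1.37 ± 0.43 (SE), adjusted p = 0.0436), in a call lost in 11 of 29 alternative fits. None of these 4 overlapped.

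Col8a2 was at 0, 7.04, 1.71, 1.03 and 4.26 CPM after MI (log2 fold change -3.35 ± 0.96 (SE), adjusted p = 0.0334) and overlapped with IR, in a call lost in 7 of 29 alternative fits. Col6a5 was called as well (-4.70 ± 1.44 (SE), adjusted p = 0.0461), a call lost in 11 of 26, but all 10 of its IR day 3 UMIs came from replicate 3, against 8 UMIs over the MI plates, so that 1 plate decides its value. Col15a1 (-0.48 ± 0.47 (SE), adjusted p = 0.590), Col8a1 (-0.67 ± 0.51 (SE), adjusted p = 0.468), Col4a1 (0.12 ± 0.45 (SE), adjusted p = 0.912), Col4a2 (-0.50 ± 0.44 (SE), adjusted p = 0.550) and Col5a3 (0.08 ± 0.43 (SE), adjusted p = 0.946) did not pass. The median was -1.10 over the members and 0.03 over all genes tested, and 37.8% of all calls were higher in MI, or 26.6% with DESeq2's size factors. Of the fibrillar chains none passed, of the basement membrane partners 4 of 11 were lower, and Antxr1 was lower by 2.12 on the log2 scale (adjusted p = 4.42e-05). The surgery cannot be told apart from the batch and depth of the MI plates.

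Levels in fibroblast-like cells were also read within each cluster, over pooled cells and with counting intervals that do not cover the spread between plates. Within cluster 6 Col6a1 was at 263 (95% interval 230.2 to 299) CPM at IR day 1, 1361 (95% interval 1247 to 1482) at IR day 3 and 434 (95% interval 418 to 449) after MI. In the same cluster Col6a2 was at 407 (95% interval 365 to 451), 1849.5 (95% interval 1716 to 1990.2) and 509 (95% interval 492 to 525.5) CPM, and Col14a1 at 34.2 (95% interval 23.05 to 48.8), 347 (95% interval 290.4 to 411) and 118 (95% interval 110.4 to 127) CPM. In cluster 14 Col6a1 was at 1404 (95% interval 1211 to 1619.6) CPM after day 1 sham surgery, 714 (95% interval 526.5 to 947) at IR day 1 (10 cells) and 1129 (95% interval 941 to 1343) at IR day 3. Col15a1 stood at 1286 (95% interval 1101 to 1492), 818 (95% interval 616 to 1065) and 1209 (95% interval 1014 to 1429.8) CPM there. Col4a4 was at 149 (95% interval 90.8 to 229.5) CPM in the sham cells of cluster 14, at 104 (95% interval 60.8 to 167) in its IR day 14 cells and at 17.8 (95% interval 2.15 to 64.2) in its IR day 3 cells.

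**Figure D4:**
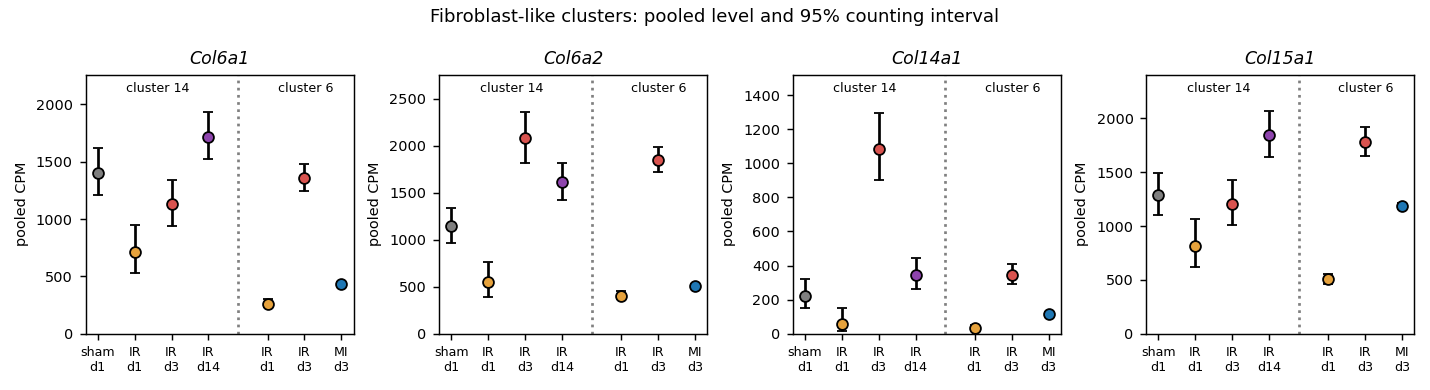
Level of Col6a1, Col6a2, Col14a1 and Col15a1 (CPM, all cells of a cluster and group pooled) in fibroblast-like clusters 14 and 6, with 95% Poisson intervals that cover counting error only. In both clusters IR day 1 is the lowest group for each gene, and in cluster 6 IR day 3 is above MI.

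At day 14 of IR only 2 plates held enough fibroblast-like cells, and with 1 day 14 sham plate no comparison was fixed. Their values were 2542 and 1463 CPM for Col6a1, 1808 and 1563 CPM for Col6a2, 236 and 391 CPM for Col14a1, 2411 and 1662 CPM for Col15a1 and 78.6 and 116 CPM for Col4a4. The day 14 sham plate had 1411, 1881, 333, 1567 and 118 CPM of the same genes. Col8a2 was at 209.6 and 158 CPM at IR day 14, above its level on every other plate.

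Endothelial-like cells, where 8 of the 39 members could be tested, gave the lowest adjusted p of all 12 comparisons between groups for these genes, for Col18a1 after MI. Of the 8 members 5 rose and 0 fell, where 33.8% of the 4068 genes tested were called and 18.9% were called higher. The filter on low counts asked for enough UMIs on 2 plates of any group. Col8a1 and Col23a1, at most 45.1 and 29.4 CPM on a sham plate, entered through plates of injured hearts. The count of 5 is therefore not read against that share. Col18a1, which encodes the collagen that gives rise to endostatin, was at 16.8, 8.91, 33.1 and 99.3 CPM on the day 1 sham plates and 43.1, 52.6, 0 and 0 CPM on the day 14 sham plates. On the 5 MI plates it was at 594, 504, 693, 529 and 349.6 CPM (log2 fold change 3.85 ± 0.44 (SE), adjusted p = 4.65e-08). Every MI plate lay above every sham plate, and all 38 alternative fits kept the call.

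Col4a1 was at 943, 1194, 1815 and 2023 CPM and 2287, 2026, 819 and 1734 CPM after sham surgery at day 1 and day 14, and at 3991, 3261, 3740.2, 1686 and 2472 CPM after MI (log2 fold change 0.89 ± 0.28 (SE), adjusted p = 0.0128). Its partner Col4a2, at 2426, 1896, 2231, 1106 and 1049 CPM after MI, did not pass (log2 fold change 0.52 ± 0.26 (SE), adjusted p = 0.127). Col15a1 was at 25.2, 98.0, 206 and 154 and 97.1, 224, 79.3 and 328 CPM after sham surgery and 561, 594, 445, 306 and 74.9 CPM after MI (log2 fold change 1.501 ± 0.50 (SE), adjusted p = 0.0189), with MI replicates 4 and 5 inside the sham range, and 5 of 38 alternative fits lost the call. Col8a1 was at 107, 29.998, 65.6, 173 and 24.97 CPM after MI and at most 45.1 CPM on a sham plate (log2 fold change 3.08 ± 0.87 (SE), adjusted p = 0.00629). Col23a1 was at 42.9, 66.0, 0, 22.4 and 624 CPM after MI (log2 fold change 3.24 ± 1.08 (SE), adjusted p = 0.0198), where 1 plate, replicate 5, stood far above the others, and DESeq2 did not call it (adjusted p = 0.131). Against day 1 sham alone Col18a1, Col4a1 and Col15a1 passed, and against day 14 sham alone Col18a1 and Col8a1 did. Col6a1 (0.23 ± 0.70 (SE), adjusted p = 0.834) and Col6a2 (1.07 ± 0.65 (SE), adjusted p = 0.213) did not pass.

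The median was 1.29 over the 8 members and 0.10 over all genes tested. All 4 fibrillar chains tested rose, Col3a1 (3.17 ± 0.46) with the lowest p, as did 7 of 11 basement membrane partners, with Lamc1 (1.35 ± 0.31) and Pxdn (1.38 ± 0.32) in front, while Lamb2 (-1.78 ± 0.36) fell. Of 13 folding and processing genes 6 rose, led by Fkbp10 (2.71 ± 0.54) and Serpinh1 (1.65 ± 0.33), the collagen chaperone. The MI cells of the class lay mostly in cluster 10, led by Plvap, Vwf and Apln, and the sham cells in cluster 5, led by Cd300lg, Ly6c1 and Kdr. The 10 cardiomyocyte markers summed to 10839 to 17202 CPM in the class on day 1 sham plates, 11809.9 to 31114 on day 14 sham plates and 47.7 to 256 on MI plates, and the 12 endothelial markers to 16813 to 21807, 14559 to 19760.3 and 6798 to 10833 CPM. The 10 fibroblast markers summed to 303 to 913, 187 to 1068 and 189.6 to 1199 CPM. The part of these shifts, and that of the MI batch, was not tested.

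**Figure D5:**
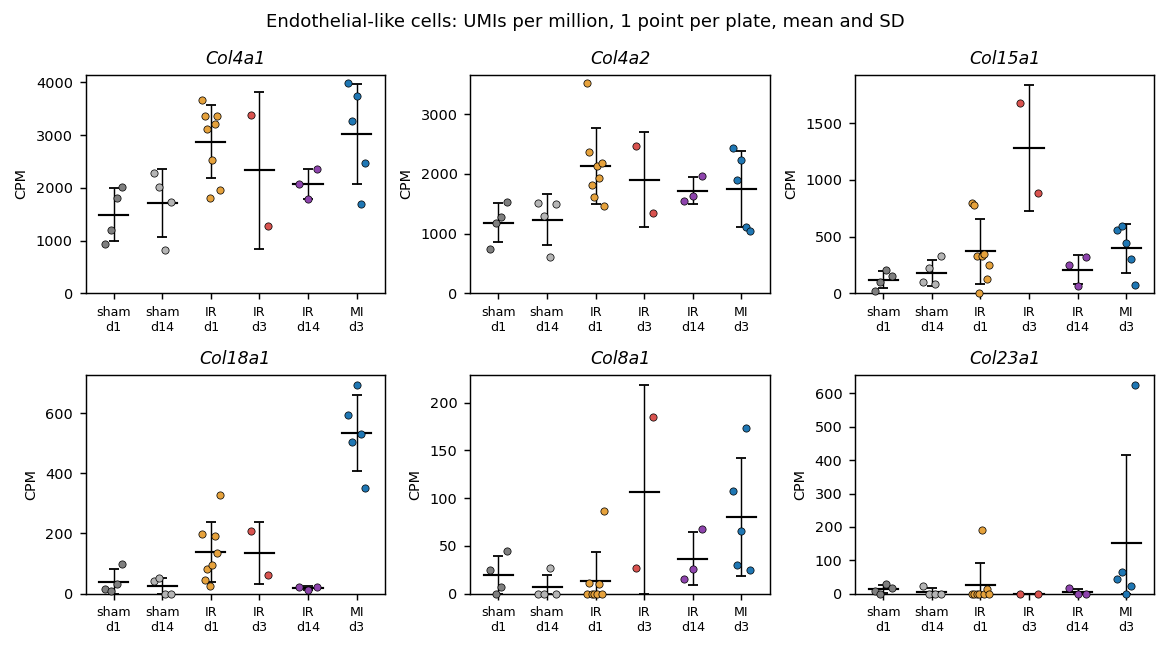
CPM in endothelial-like cells for 6 members, 1 point per plate, with the mean as a line and the SD as a bar (drawn no lower than 0), by group. All 5 MI points of Col18a1 lie above all other points, the 2 IR day 3 points of Col15a1 are the highest of that gene, and 1 MI plate carries Col23a1 at 624 CPM.

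At 1 day after IR, with 8 plates against 4 day 1 sham plates, 1 of 8 members rose and 0 fell, where 8.11% of all genes tested were called higher and 7.42% lower, 15.5% in all. Col18a1 was at 25.2 to 328 (median 116, n = 8) CPM after IR and at 16.8, 8.91, 33.1 and 99.3 CPM after sham surgery, with overlap (log2 fold change 1.95 ± 0.52 (SE), adjusted p = 0.00979), and 5 of 35 alternative fits lost the call. Col4a1, at 1815 to 3659 (median 3169, n = 8) CPM against 943, 1194, 1815 and 2023 CPM, missed the threshold (log2 fold change 0.87 ± 0.31 (SE), adjusted p = 0.0569). So did Col4a2 (0.76 ± 0.29 (SE), adjusted p = 0.0759), and DESeq2 called both. Col15a1 did not pass either (1.52 ± 0.57 (SE), adjusted p = 0.0688). Col6a1 (-1.25 ± 0.82 (SE), adjusted p = 0.318), Col6a2 (0.21 ± 0.78 (SE), adjusted p = 0.891), Col8a1 (0.28 ± 0.89 (SE), adjusted p = 0.872) and Col23a1 (-0.84 ± 1.33 (SE), adjusted p = 0.718) were far from it. The median was 0.52 over the members and 0.08 over all genes tested. The 2 main clusters were not shared evenly, as cluster 5 held 85 day 1 sham and 32 IR day 1 cells and cluster 10 held 6 and 43. In cluster 5 Col18a1 was at 26.1 (95% interval 14.3 to 43.8) CPM after day 1 sham surgery and 223 (95% interval 178 to 274) at IR day 1, and in cluster 10 at 146 (95% interval 110.2 to 190.4) at IR day 1 and 531 (95% interval 489 to 575) after MI. The cardiomyocyte markers summed to 285 to 12639 CPM at IR day 1.

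At 3 days after IR only 2 plates held enough endothelial-like cells, and Col15a1 was the 1 member of 8 that differed from sham, where 1.65% of all genes tested were called and 1.5% were called higher. It was at 1674 and 885 CPM on these plates, above all 8 sham plates (log2 fold change 3.18 ± 0.60 (SE), adjusted p = 0.00192). Without replicate 4 of IR day 3 the value was 2.66 and did not pass (adjusted p = 0.241). The other members were Col18a1 (2.03 ± 0.65 (SE), adjusted p = 0.112), Col8a1 (3.30 ± 1.17 (SE), adjusted p = 0.169), Col4a2 (0.70 ± 0.35 (SE), adjusted p = 0.368), Col4a1 (0.57 ± 0.38 (SE), adjusted p = 0.521), Col6a2 (0.82 ± 1.04 (SE), adjusted p = 0.791), Col6a1 (0.69 ± 1.02 (SE), adjusted p = 0.831) and Col23a1, which had 0 UMIs on both plates. The median was 0.76 over the members and 0.01 over all genes tested. Of the 4 fibrillar chains tested 3 rose, Col3a1 (4.22 ± 0.55) in front. Macrophage markers summed to 1104 to 3583 CPM and fibroblast markers to 154 to 1544 CPM in these cells, against 16.8 to 405 and 303 to 913 CPM on day 1 sham plates and 32.4 to 3329 and 187 to 1068 CPM on day 14 sham plates, and their part in the Col15a1 value was not tested.

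Between MI and IR day 3, 0 of the 8 members passed in this class (edgeR), where 3.59% of all genes tested did, 0.467% higher and 3.12% lower in MI. At an unadjusted p under 0.05 there were 3 members, and DESeq2 called 0. Col18a1 was higher in MI (1.82 ± 0.62 (SE), adjusted p = 0.113) and Col15a1 lower (-1.68 ± 0.64 (SE), adjusted p = 0.173), both without overlap between 5 and 2 plates, and neither passed. Col4a1 (0.33 ± 0.42 (SE), adjusted p = 0.813), Col4a2 (-0.18 ± 0.38 (SE), adjusted p = 0.900), Col6a1 (-0.46 ± 1.02 (SE), adjusted p = 0.905), Col6a2 (0.25 ± 1.00 (SE), adjusted p = 0.955) and Col8a1 (-0.21 ± 1.02 (SE), adjusted p = 0.962) had wide errors around 0, and Col23a1 had 80 UMIs in MI and 0 in IR day 3 (adjusted p = 0.223). At day 14 of IR 0 of 8 members and 0 of 4068 genes differed from day 14 sham (edgeR), with 0 members and 212 genes at an unadjusted p under 0.05 and 0 members by DESeq2. The share of all genes called was thus 0%. Col4a2 was at 1550.3, 1627 and 1971 CPM against 1510.2, 1302, 608 and 1499.7 CPM (log2 fold change 0.62 ± 0.36 (SE), adjusted p = 0.928), and although the plates did not overlap it did not pass. The other members with values were Col4a1 (0.40 ± 0.38 (SE), adjusted p = 0.964), Col15a1 (0.44 ± 0.77 (SE), adjusted p = 0.986), Col18a1 (-0.67 ± 1.01 (SE), adjusted p = 0.984), Col6a1 (-0.07 ± 1.17 (SE), adjusted p = 1.00), Col6a2 (0.96 ± 1.05 (SE), adjusted p = 0.971), Col8a1 (2.61 ± 1.69 (SE), adjusted p = 0.931) and Col23a1 (0.13 ± 2.01 (SE), adjusted p = 1.00). In simulated data 51% of genes changed 4-fold were found in the day 14 comparison and 45% in that of MI with IR day 3, so that many differences of that size would be missed in both.

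Cardiomyocyte-like cells had 5 testable members. At IR day 3, 2 of them rose and 0 fell, where 6.31% of the 4296 genes tested were called and 4.21% were called higher. The filter on low counts asked for 2 plates of any group, so that both could enter through injured plates alone. Col15a1 was at 0, 0, 26.4 and 28.8 CPM on the day 1 sham plates, 20.3, 60.9, 0, 0 and 30.7 CPM on the day 14 sham plates and 0, 68.7, 111, 137 and 133 CPM on the IR day 3 plates (log2 fold change 2.22 ± 0.45 (SE), adjusted p = 0.000170). Col6a2 was at 14.4, 0, 34.002 and 50.4, 8.10, 0, 0, 44.3 and 30.7 and 322, 106, 0, 119.7 and 123 CPM (log2 fold change 2.09 ± 0.44 (SE), adjusted p = 0.000402). For each gene 1 IR day 3 plate was at 0, of 5 cells for Col15a1 and 16 cells for Col6a2, and every other IR day 3 plate lay above every sham plate. The plate of 5 cells held 6209 UMIs in all. Its 322 CPM of Col6a2 thus rests on very few UMIs, and its 0 for Col15a1 says little. DESeq2 called Col15a1 but not Col6a2 (adjusted p = 0.160), and with the replicate number as a block neither was called. The cells of the class lay in different clusters: cluster 3, led by Sprr1a, Nppa and Nmrk2, held 171 IR day 3 cells and 15 and 4 cells of day 1 and day 14 sham, most of which lay in clusters 0 and 1. The basement membrane chains, by far the most abundant members here, did not pass. Col4a2 was at 483, 463, 277, 428 and 498 CPM after IR, 191, 147, 212 and 281 CPM after day 1 sham surgery and 169 to 323 (median 190, n = 5) CPM after day 14 sham surgery (log2 fold change 0.72 ± 0.29 (SE), adjusted p = 0.133). Col4a1 was at 0, 409, 166, 325 and 382 CPM after IR and at 141 to 257 (median 192, n = 4) and 76.8 to 456 (median 196, n = 5) CPM after day 1 and day 14 sham surgery (log2 fold change 0.54 ± 0.30 (SE), adjusted p = 0.317). Col6a1 did not pass either (1.32 ± 0.50 (SE), adjusted p = 0.109). Col4a5, Col8a1 and Col6a3 had too few UMIs to be tested.

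The fibrillar chains, all 5 of them, rose in the same comparison, Col3a1 (4.41 ± 0.38) with the lowest p. In this class the 10 fibroblast markers summed to 232 to 967 and 279 to 752 CPM on day 1 and day 14 sham plates and 481 to 1351 CPM on IR day 3 plates, and the 10 macrophage markers to 30.2 to 123, 0 to 91.4 and 222 to 1283 CPM. The 12 endothelial markers summed to 181 to 771, 138 to 1127 and 0 to 186 CPM and the 9 mural markers to 266 to 513, 273 to 646 and 296 to 644 CPM. RNA of other cells in these wells was not tested as a part of the result. Over all groups Col15a1 and Col6a2 were seen in a smaller share of these cells than of neutrophil-like cells, a class with 0 cells at IR day 3. The median was 1.32 over the 5 members and -0.02 over all genes tested. At IR day 14, 0 of 5 members differed from day 14 sham (edgeR, with 0.233% of all genes called, 0.186% higher and 0.0466% lower, 1 member at an unadjusted p under 0.05 and 0 by DESeq2). That member was Col6a2, at 29.7, 51.4 and 62.3 CPM against 8.10, 0, 0, 44.3 and 30.7 CPM (log2 fold change 1.37 ± 0.63 (SE), adjusted p = 0.930). Col4a1 (0.53 ± 0.38 (SE), adjusted p = 1.000), Col4a2 (0.15 ± 0.37 (SE), adjusted p = 1.000), Col15a1 (0.83 ± 0.57 (SE), adjusted p = 1.000) and Col6a1 (1.05 ± 0.63 (SE), adjusted p = 1.000) did not pass, and the median was 0.83 over the members and 0.04 over all genes tested. Of the fibrillar chains 3 of 5 rose, Col1a2 (3.07 ± 0.60) with the lowest p. IR day 1 and MI left 3 and 2 plates with enough of these cells, and no comparison was fixed for them. Col4a1 was at 705, 1032 and 616 CPM on the IR day 1 plates, from 17, 19 and 29 UMIs, and at 76.0 and 272 CPM on the MI plates.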

How the data were processed

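SORT-seq libraries of 36 plates of 384 wells were used. The authors mapped the reads with BWA to GRCm38/mm10 and deposited UMI counts per gene and well, without normalization (6-base UMI), and the BWA version and the gene annotation are not given in the sources used here. All values were whole numbers and 0 columns of other samples were present. Mitochondrial and spike-in rows were left out, and wells of at least 1000 UMIs were kept as cells. Cells were clustered without collagen genes (scanpy 1.11.5, leidenalg 0.10.2), clusters were named from markers, and doublets were not called. Counts were summed per plate and class where a plate held at least 5 cells, and plates were the replicates.

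The sums were tested with edgeR 4.0.16 (quasi-likelihood, TMM, filterByExpr) in R 4.3.3, with all groups in 1 fit per class, and p-values were adjusted over all genes tested (Benjamini-Hochberg, threshold 0.05). The filter asks for enough UMIs on about as many plates as the smallest group holds, in any group. A member of low counts can thus enter through the group where it is high, which bears on every count of members called. "Sham" weights the day 1 and day 14 sham groups equally, so that comparisons share control plates. Differences are log2 fold changes, the first group minus the second. Named are members of at least 100 UMIs, those past the threshold and the 8 most abundant of a class, and up to 3 genes of each partner list. The members and lists were chosen with earlier results of these data known. The fits were tested on simulated data. DESeq2 1.42.0, other scaling, filters, depth minimums, sham groups, a replicate block and omission of each plate were the alternatives. Intervals are exact Poisson intervals and cover counting error only.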

Additional observations from a re-analysis of the deposited data

Results flagged for a closer look

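In 80 groups of 4 to 10 plates with a reported member, 7 plates stood apart from the rest of their group, by a gap between the highest plate and its nearest neighbour that exceeded the 95% limit of Dixon's test. Chance gives about 1 in 20 groups where values are normally distributed. CPM from few UMIs need not be, so that 7 of 80 is not read against that rate. In fibroblast-like cells these were Col4a1 on IR day 3 replicate 7 at 1332 CPM (next plate 687), Col14a1 on IR day 1 replicate 3 at 65.8 CPM (next 7.84), Col16a1 on IR day 3 replicate 5 at 249 CPM (next 194) and Col4a4 on MI replicate 2 at 7.04 CPM (next 1.17). In endothelial-like cells they were Col4a2 on IR day 1 replicate 1 at 3517 CPM (next 2358) and Col23a1 on MI replicate 5 at 624 CPM (next 66.0). In cardiomyocyte-like cells Col4a2 stood at 323 CPM on day 14 sham replicate 5 (next 203). The cause was not tested.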

How the results depend on the processing

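Of 42 called differences of single members, 0 changed direction in 1289 alternative fits and 127 of those fits lost the call. Of 68 differences that were not called, 28 of 2225 fits gained a call. The counts of members called are given below with the count as reported first, and the cause of a change was not tested except where fewer plates or more genes entered by construction.

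In fibroblast-like cells, MI against sham (4) gave 2 with day 1 sham alone, 1 with day 14 sham alone and 2 without cells that carry markers of another lineage. IR day 3 against sham (1) gave 3 with DESeq2, 3 without the filter on low counts, 0 with day 14 sham alone and 3 with both sham groups as 1. IR day 3 against IR day 1 (9) gave 14 without the filter and 1 with at least 10 cells per plate. In endothelial-like cells, MI against sham (5) gave 9 without the filter, 3 with day 1 sham alone and 2 with day 14 sham alone. IR day 1 against day 1 sham (1) gave 2 with RLE scaling, without the filter and with at least 10 cells, and 3 with DESeq2, with a doubled minimum of UMIs per cell and without cells that carry markers of another lineage. IR day 3 against sham (1) gave 3 without the filter and 0 with day 14 sham alone, and MI against IR day 3 (0) gave 2 without the filter. In cardiomyocyte-like cells IR day 3 against sham (2) gave 5 without the filter and 4 with at least 10 cells. Fibroblast-like against endothelial-like cells (7) gave 19 without the filter and 13 with at least 10 cells. Over all genes tested, RLE scaling also shifted the median difference (log2) by -0.13 in fibroblast-like cells at IR day 1 against sham, by -0.11 in endothelial-like cells at MI against sham and by 0.11 in cardiomyocyte-like cells at IR day 3 against sham.

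The replicate numbers did not pair the plates: deviations of plates with the same number correlated between -0.21 and 0.13 in the 3 classes. With the replicate number as a block the counts were 2 for MI against sham, 0 for IR day 3 against sham and 2 for MI against IR day 3 in fibroblast-like cells. The block gave 3 for MI against sham, 3 for IR day 1 against day 1 sham and 0 for IR day 3 against sham in endothelial-like cells, and 0 for IR day 3 against sham in cardiomyocyte-like cells. The other comparisons stayed within 1.5 times their count under the block.

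Leaving out 1 plate at a time gave, in fibroblast-like cells, 2 to 5 calls for MI against sham (2 without MI replicates 1, 2 or 3, day 1 sham replicate 3 or day 14 sham replicate 8), 5 to 6 for IR day 1 against sham, 1 to 2 for IR day 3 against sham, 3 to 6 for MI against IR day 3 (3 without IR day 3 replicates 3 or 4 or MI replicates 1, 3 or 4) and 7 to 10 for IR day 3 against IR day 1. In endothelial-like cells it gave 3 to 6 for MI against sham (3 without MI replicate 1), 0 to 2 for IR day 1 against day 1 sham (0 without day 1 sham replicates 1, 2 or 3) and 0 to 2 for IR day 3 against sham (0 without IR day 3 replicate 4). The range was 2 to 3 for IR day 3 in cardiomyocyte-like cells and 7 to 8 between classes. Where a group was left with 1 plate, that plate was assumed to vary like the others. The sham choices other than the single sham groups and the lineage filter were chosen after seeing the data. Cells with 3 markers of another class could be left out only in cardiomyocyte-like cells, and at least 10 cells per plate could not be run for fibroblast-like cells against sham. Depth limits the rest: 21 of 39 members in fibroblast-like, 31 in endothelial-like and 34 in cardiomyocyte-like cells had too few UMIs for a test.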
